A study of Homo sapiens with 12 samples.

Results

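Transcript levels of 8 genes of fatty acid handling were examined by poly(A)-selected RNA-seq in cells labelled as 2 human liver cancer lines, in which the amount of CD146 was changed. CD146 is a cell surface adhesion molecule encoded by MCAM. The 8 genes were chosen by name, and each matched 1 of the 61806 gene IDs of the count table. They are FABP1 for fatty acid binding, CPT1A and CPT2 for entry into mitochondria, ACADVL, ACADM and HADHA for beta-oxidation, the receptor gene PPARA, and PLIN2 for lipid storage. The 12 libraries form 4 groups of 3. Cells labelled Hep3B, grown in DMEM, carried a Tet-on control shRNA (label Con sh) or a Tet-on shRNA against CD146 (label CD146 sh). HepG2 cells, grown in MEM with sodium pyruvate, carried the vector pLVX or the vector with CD146 (label CD146oe). All cells received 10% FBS and 1% penicillin/streptomycin. Whether a group held 1 clone or a mixed population, 1 hairpin or several, was not given in the sources used here. Nor was it given that replicates were separate cultures, so p-values reflect the spread among these libraries alone, which may be technical.

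Fatty acids are carried in the cytosol of liver cells by FABP1. Once activated to acyl-CoA, long chains enter mitochondria by the carnitine shuttle, in which CPT1A on the outer membrane makes acylcarnitine and CPT2 on the inner membrane turns it back into acyl-CoA. Beta-oxidation then shortens the chain step by step: ACADVL and ACADM open each round on very long and medium chains, and HADHA, the alpha subunit of the trifunctional protein, carries out the next steps on long chains. PPARA is a nuclear receptor that fatty acids activate. With its partner RXR it binds direct repeats called DR1 elements at genes of this pathway, with FABP1 and CPT1A among its well known liver targets. PLIN2 coats lipid droplets, where fatty acids are kept as triglyceride.

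In the annotation (GENCODE version 29, GRCh38), FABP1 (ENSG00000163586) is on chromosome 2, minus strand, 88122982 to 88128116. HADHA (ENSG00000084754) is on the same strand of chromosome 2, from 26190635 to 26244726, and its gene body overlaps HADHB without sharing an exon. CPT1A (ENSG00000110090) is on chromosome 11, minus strand, from 68754620 to 68844410, and PLIN2 (ENSG00000147872) on that of chromosome 9 from 19108375 to 19149290. PPARA (ENSG00000186951) lies on the plus strand of chromosome 22 from 46150521 to 46243756. The other 3 share exons with neighbours, so that their counts are less certain. These are CPT2 (ENSG00000157184, plus strand of chromosome 1, 53196429 to 53214197), ACADVL (ENSG00000072778, plus strand of chromosome 17, 7217125 to 7225273) and ACADM (ENSG00000117054, plus strand of chromosome 1, 75724347 to 75787575). CPT2 shares exons with C1orf123 on the other strand (13.6 to 30.7 CPM as group means), ACADVL with DLG4 (5.63 to 9.97 CPM), and ACADM with RABGGTB on its own strand (158 to 227 CPM).

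FABP1 had the largest difference between the lines and the largest fold change with CD146 overexpression among the 8 genes, so the stretch before its start is shown. It covers chr2:88128117-88128312 on the minus strand (RefSeq, GRCh38.p14), from 250 to 55 bases before the RefSeq start. Capitals mark the single match to the DR1 letters (AGGTCA, any 1 base, AGGTCA), searched on both strands with up to 2 mismatches.
FABP1: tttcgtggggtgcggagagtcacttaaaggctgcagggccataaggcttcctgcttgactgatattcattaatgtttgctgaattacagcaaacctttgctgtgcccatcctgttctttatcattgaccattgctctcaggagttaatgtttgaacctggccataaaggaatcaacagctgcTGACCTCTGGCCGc
All 8 genes had a promoter in the RefSeq table (windows of 300 bases), and FABP1 was the 1 with a match. Among all 35116 promoters of that table, 1043 (2.97%) held a match. In a list of 25 PPARA target genes, 18 had a promoter and 5 held a match, namely FABP1, ACSL1, CREB3L3, APOA5 and CD36. A match describes the letters and was not tested as a binding site, and no match says only that these letters are absent from the window.

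Library totals ran from 12.8M to 18.1M counts, with 24377 to 28844 genes detected. Levels below are in CPM, counts per 1e6 of the library total after TMM adjustment across all 12 libraries. MCAM fell with the CD146 shRNA from 104 ± 3.27 to 22.1 ± 2.03 CPM (SD, n = 3) and rose in HepG2 from 25.8 ± 0.533 to 2122 ± 26.7 CPM (log2 fold changes -2.25 and 6.37, edgeR adjusted p = 5.5e-29 and 5.6e-67). MCAM shares exons with CBL and MIR6756, whose highest group mean was 78.4 CPM, so that its counts are less certain as well. The labelled cell type was checked with 15 hepatocyte markers. In HepG2 all 15 stood at 10 CPM or more in each library. In 5 of the 6 libraries labelled Hep3B their summed level was 6.83 to 9.60 CPM, with 7 to 10 of the 15 at 0 counts, and the defining marker ALB had 0 to 5 counts. HNF4A, at 7.17 and 8.32 CPM in the shRNA groups, made up most of that sum. The libraries labelled Hep3B thus nearly lacked the other hepatocyte markers, and whether the label describes these cells was not tested. They are named by their label throughout, and each comparison between the lines is one between libraries so labelled. In the library of the CD146 shRNA replicate 3 the same markers summed to 75.4 CPM, which was 0.106% of the HepG2 level, and ALB had 298 counts. Cholangiocyte markers summed to 170 to 184 CPM with the control shRNA, 148 to 151 with the CD146 shRNA, 1011 to 1127 with pLVX and 1302 to 1338 with CD146oe. These sums mix opposite directions, since 4 of the 6 markers were higher in pLVX HepG2 than in control shRNA libraries and 2 were lower. SPP1 averaged 674 CPM in the former and 0.176 CPM in the latter. KRT7 showed the reverse, at 0.102 against 119 CPM, as did CFTR, at 0 against 1.61 CPM. Endothelial markers summed to 18.5 to 22 CPM with the control shRNA and 36.1 to 37.0 CPM with the CD146 shRNA. CDH5 carried most of this rise (0.682 to 18.2 CPM as group means), while ERG went from 17.1 to 14.6 CPM and KDR was at 0. VWF went from 12, 12 and 17 to 38, 38 and 37 counts. Of the 4 tested endothelial markers 2 rose and 1 fell, beside 26.8% and 28.5% of all genes tested. Fibroblast and stellate markers summed to 53.4 to 61.8 and 87.6 to 108 CPM there, most of it COL1A1 (52.4 and 84.0 CPM), with DCN and LUM near 0. COL1A2 went from 3, 3 and 3 to 148, 150 and 19 counts, and COL3A1 from 5, 4 and 3 to 36, 49 and 7. PDGFRB went from 86, 78 and 63 to 157, 141 and 126 counts. Of the 4 tested markers of this list 3 rose and 0 fell, where 26.8% of all genes tested rose. Leukocyte markers summed to 2.35 to 4.82 CPM in those libraries, and in HepG2 to 1446 to 1504 CPM with pLVX and 1065 to 1132 CPM with CD146oe. The HepG2 sum was nearly all LYZ (1464 and 1101 CPM), with the defining marker PTPRC at 0.107 and 0 CPM. Their part in the results was not tested.

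**Figure D1:**
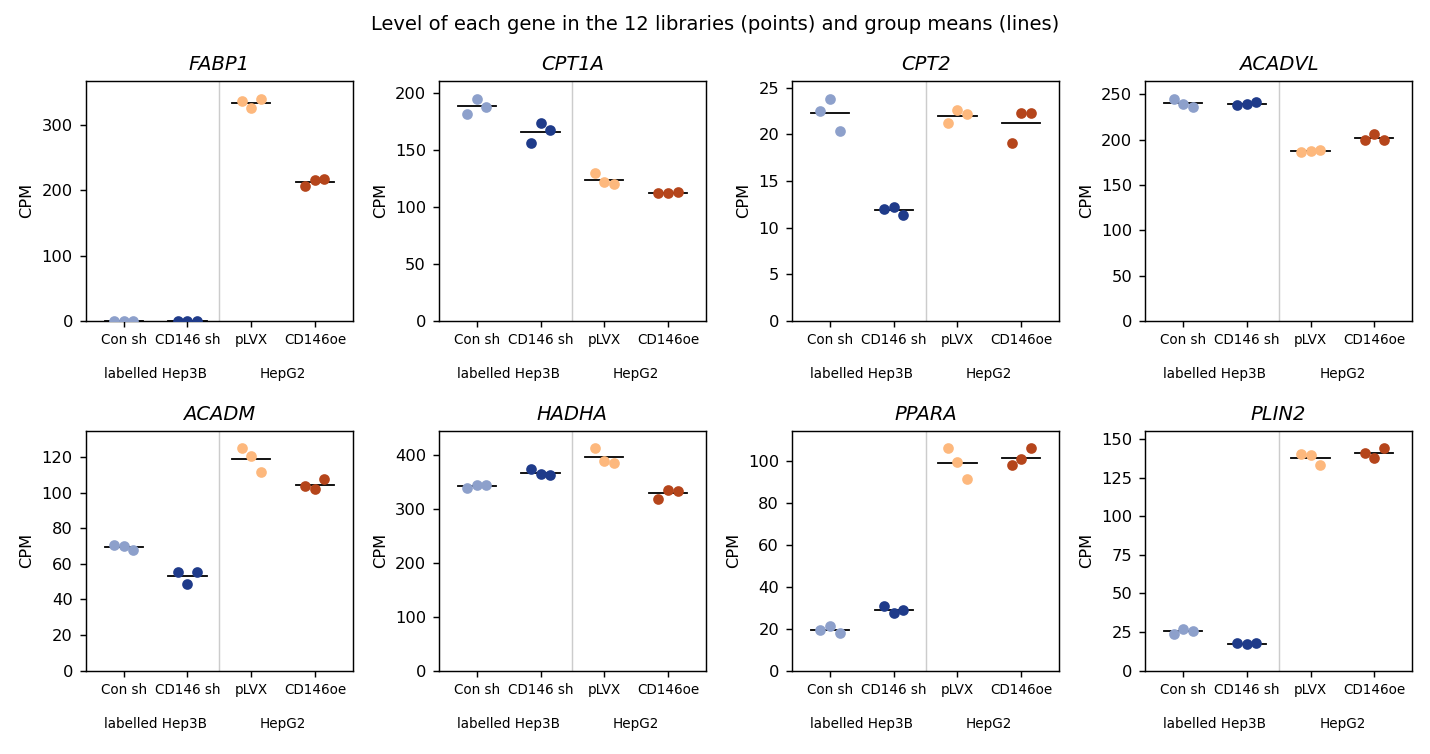
CPM of the 8 genes in each library (vertical axes, each from 0), by group (horizontal axis): points are libraries and lines are means of 3 libraries. FABP1 was at or near 0 in the libraries labelled Hep3B and at 206 to 340.1 CPM in HepG2, CPT2 was lowest with the CD146 shRNA, and PPARA and PLIN2 were several times higher in HepG2.

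Compared per length, by the authors' FPKM, the 8 genes spanned a wide range and were ordered differently in the 2 lines. HADHA and ACADVL led in the libraries labelled Hep3B, at 88.4 and 55.7 FPKM with the control shRNA, followed by CPT1A at 32.1 FPKM. PLIN2, ACADM, CPT2 and PPARA were at 5.70, 5.64, 2.46 and 1.65 FPKM there, and FABP1 was listed at 0. With pLVX, FABP1 was first at 122 FPKM, ahead of HADHA at 80.6 FPKM and ACADVL at 34.2 FPKM. PLIN2 (24.2 FPKM) passed CPT1A (16.7 FPKM) in that group, while ACADM, PPARA and CPT2 stood at 7.66, 6.60 and 1.93 FPKM. Related genes with the same kind of role showed which form each line carried. FABP3, the heart-type fatty acid binding protein, stood at 26.6 FPKM with the control shRNA and 1.00 FPKM with pLVX, the reverse of FABP1, and FABP5 at 0.0567 and 13.6 FPKM. CPT1A was the main CPT1 form in all 4 groups by this measure, since CPT1B stayed between 0.49 and 0.92 FPKM and CPT1C at or under 0.187 FPKM. PLIN3 was above PLIN2 in the libraries labelled Hep3B (29.3 against 5.70 FPKM with the control shRNA) and below it in HepG2 (13.9 against 24.2 FPKM with pLVX).

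**Figure D2:**
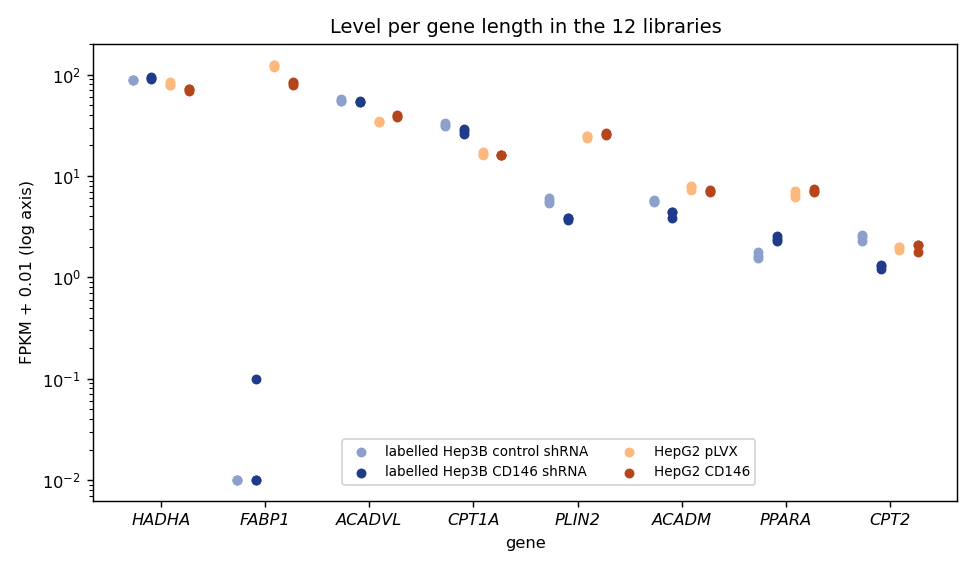
The authors' FPKM (log axis, FPKM + 0.01) of the 8 genes (horizontal axis) in each library, coloured by group. HADHA is high and CPT2 is low in all 4 groups. FABP1 lies at the bottom in the libraries labelled Hep3B and at the top in HepG2, and PPARA is lower in the libraries labelled Hep3B.

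FABP1, the liver-type fatty acid binding protein, was absent or nearly so from the libraries labelled Hep3B and fell in HepG2 when CD146 was overexpressed. FABP1 had 0 counts in the 3 control shRNA libraries and in CD146 shRNA replicates 1 and 2. CD146 shRNA replicate 3 had 3 counts (0.196 CPM), which is 0.0714% of the HepG2 mean, in the library that also held the trace of other hepatocyte transcripts. Taking 3 counts in a library as the floor of detection, FABP1 was at least 1711-fold higher with pLVX than with the control shRNA. It was too low to be tested for the CD146 shRNA. With pLVX, FABP1 stood at 337, 326 and 340.1 CPM, and with CD146oe at 206, 216 and 218 CPM. Each CD146oe library was below each pLVX library. Its mean went from 334 ± 7.55 down to 214 ± 6.65 CPM (SD, n = 3, as for all means below), a log2 fold change of -0.64 (SE 0.03, edgeR adjusted p = 7.5e-22). The 15 hepatocyte markers summed to 74865 to 77101 CPM with pLVX and 65468 to 65968 CPM with CD146oe, a fall carried mostly by ALB (24232 to 16635 CPM). Of the 15, 6 fell and 3 rose, where 19.8% of all genes tested changed, and their median log2 change was -0.02. Their part in the change of FABP1 was not tested. Fewer cells of a type and less RNA per cell cannot be told apart in bulk samples.

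CPT1A and CPT2 both fell with the CD146 shRNA, CPT2 by the larger amount. CPT1A, which sets the rate of entry of long chains into mitochondria, measured 182, 195 and 188 CPM under the control shRNA, against 156, 174 and 168 CPM under the CD146 shRNA. The groups did not overlap, and the mean fell from 188 ± 6.32 to 166 ± 8.94 CPM (log2 change -0.18 ± 0.05 SE, adjusted p = 0.00071 by edgeR). In HepG2, CPT1A measured 130.2, 122 and 119.9 CPM under pLVX, against 112, 112 and 113 CPM under CD146oe. It was thus lower in the treated group of each line, and the fall from 124 ± 5.38 to 113 ± 0.567 CPM passed the test in HepG2 (log2 change -0.13 ± 0.04 SE, adjusted p = 0.0185 by edgeR). That call was lost with DESeq2 (adjusted p = 0.07), on the FPKM (0.33), with all libraries in 1 fit (0.063), and without pLVX replicate 1 (0.14) or CD146oe replicate 1 (0.056) or 3 (0.058). The 4 groups of CPT1A did not overlap, and both groups labelled Hep3B lay above both HepG2 groups, with 1.67-fold between the highest and the lowest mean.

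CPT2 measured 22.5, 23.8 and 20.4 CPM under the control shRNA, against 12, 12.2 and 11.3 CPM under the CD146 shRNA. Its 3 CD146 shRNA libraries were the lowest of all 12. The mean fell from 22.2 ± 1.72 to 11.8 ± 0.489 CPM, the largest change of the 8 genes in these libraries (log2 change -0.91 ± 0.09 SE, adjusted p = 7.6e-12 by edgeR). In HepG2 the values were 21.2, 22.6 and 22.2 CPM under pLVX, against 19.1, 22.3 and 22.3 CPM under CD146oe. These overlapped each other and the control shRNA libraries, and the change did not pass the test (log2 change -0.05 ± 0.08 SE, adjusted p = 0.759 by edgeR). C1orf123, which shares exons with CPT2, was at 16.7 CPM with the control shRNA and 13.6 CPM with the CD146 shRNA.

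Among ACADVL, ACADM and HADHA, the log2 change was largest for ACADM with the CD146 shRNA and for HADHA with CD146oe. ACADVL, the very long chain acyl-CoA dehydrogenase, was nearly level in the libraries labelled Hep3B, at 245, 239 and 236 CPM under the control shRNA, against 238, 239 and 241 CPM under the CD146 shRNA. These overlapped (log2 change -0.01 ± 0.04 SE, adjusted p = 0.905 by edgeR). In HepG2 it measured 186, 187 and 188 CPM under pLVX, against 200, 206 and 199 CPM under CD146oe. ACADVL was the 1 member of the 8 that rose there (log2 change 0.12 ± 0.04 SE, adjusted p = 0.0142 by edgeR), and the call was lost without pLVX replicate 2 (0.062) or CD146oe replicate 2 (0.082).

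ACADM, the medium-chain acyl-CoA dehydrogenase, measured 70.7, 70.0 and 67.8 CPM under the control shRNA, against 55.2, 48.5 and 55.2 CPM under the CD146 shRNA. Its mean fell from 69.5 ± 1.49 to 53.0 ± 3.89 CPM with no overlap (log2 change -0.40 ± 0.05 SE, adjusted p = 4.5e-08 by edgeR). HepG2 carried more of it, at 125, 121 and 112 CPM under pLVX, against 104, 102 and 108 CPM under CD146oe. The groups were again separate, and ACADM fell from 119.6 ± 6.60 to 105 ± 2.82 CPM (log2 change -0.19 ± 0.04 SE, adjusted p = 0.00095 by edgeR), a call lost on the FPKM (adjusted p = 0.2). Like CPT1A, ACADM was lower in the treated group of each line. RABGGTB, which shares exons with ACADM, was at 188 CPM with the control shRNA and 158 CPM with the CD146 shRNA. In HepG2 it was at 219 CPM with pLVX and 227 CPM with CD146oe.

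HADHA was the most abundant of the 3 cycle enzymes in all 4 groups by FPKM, and its changes were small. It measured 339, 344 and 344 CPM under the control shRNA, against 374, 365 and 362 CPM under the CD146 shRNA. The groups did not overlap, but the rise from 342 ± 2.87 to 367 ± 6.35 CPM (log2 change 0.10 ± 0.04 SE, adjusted p = 0.0341 by edgeR) was lost when low genes were not filtered (0.17), on the FPKM (0.088) and in 5 of the 6 fits that left out a library (0.064 to 0.12), all but that without CD146 shRNA replicate 1. In HepG2, HADHA fell from 412, 388 and 386 CPM with pLVX to 318, 335 and 333 CPM with CD146oe, again without overlap. The means were 395 ± 14.1 and 329 ± 9.43 CPM (log2 change -0.26 ± 0.03 SE, adjusted p = 1.6e-08 by edgeR). HADHB, the beta subunit of the same protein, rose with the CD146 shRNA from 111 to 128 CPM (log2 fold change 0.21, adjusted p = 0.00011) and was at 199 and 189 CPM in the HepG2 groups (log2 fold change -0.07, adjusted p = 0.186).

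PPARA, the receptor, rose with the CD146 shRNA, while in HepG2 its level was several times higher and its change did not pass the test. It measured 19.2, 21.1 and 18.1 CPM under the control shRNA, against 31.0, 27.6 and 28.7 CPM under the CD146 shRNA. The mean rose from 19.4 ± 1.54 to 29.1 ± 1.70 CPM without overlap (log2 change 0.58 ± 0.07 SE, adjusted p = 1.1e-08 by edgeR). HepG2 had 106, 99.6 and 91.4 CPM under pLVX, against 98.0, 101 and 106 CPM under CD146oe, which overlapped (log2 change 0.05 ± 0.05 SE, adjusted p = 0.524 by edgeR). In the libraries labelled Hep3B the related receptor PPARD also rose (log2 fold change 0.47, adjusted p = 0.00019), whereas PPARG, the adipocyte-type receptor, fell from 31.2 to 18.6 CPM (-0.74, adjusted p = 1.3e-10). RXRA, the partner receptor, was at 81.9 and 83.3 CPM there (adjusted p = 0.739) and fell in HepG2 from 74.7 to 64.2 CPM (-0.22, adjusted p = 0.00078). PPARGC1A, a coactivator of PPARA, rose with the CD146 shRNA from 22.5 to 47.0 CPM (1.05, adjusted p = 1.7e-16).

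PLIN2, the lipid droplet coat protein, fell with the CD146 shRNA and stood at a much higher level in HepG2. It measured 23.8, 27.2 and 25.6 CPM under the control shRNA, against 17.6, 17.0 and 17.9 CPM under the CD146 shRNA. The groups were separate, and the mean fell from 25.5 ± 1.70 to 17.5 ± 0.472 CPM (log2 change -0.55 ± 0.08 SE, adjusted p = 7.6e-08 by edgeR). In HepG2 it was at 140.3, 139.8 and 133 CPM under pLVX, against 141, 138 and 144 CPM under CD146oe, with overlap (log2 change 0.04 ± 0.04 SE, adjusted p = 0.55 by edgeR). PLIN3, another droplet coat protein, fell slightly with the CD146 shRNA from 71.9 to 65.4 CPM (-0.14, adjusted p = 0.0255). PNPLA2, the triglyceride lipase at the droplet surface, was at 14.9 and 16.2 CPM (adjusted p = 0.341).

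**Figure D3:**
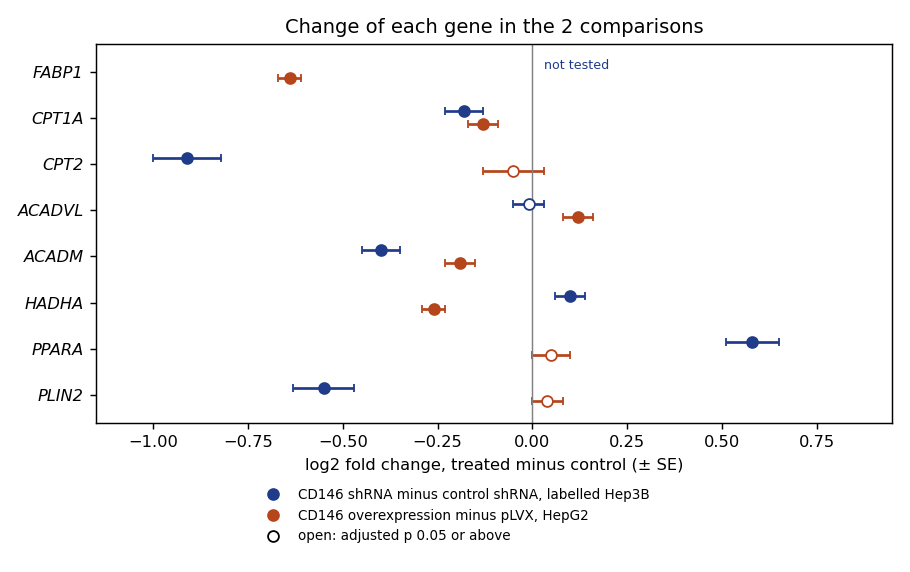
Log2 fold changes of the 8 genes with their standard errors (horizontal axis), for the CD146 shRNA against the control shRNA and for CD146oe against pLVX, with filled points for an adjusted p under 0.05 and open points otherwise. CPT2 at -0.91 and FABP1 at -0.64 are the lowest values of the 2 comparisons, and PPARA at 0.58 is the highest.

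Of the 7 genes that could be tested in the libraries labelled Hep3B, 6 changed with the CD146 shRNA at an adjusted p under 0.05, where 55.3% of all 16968 genes tested did. PPARA and HADHA rose, and CPT1A, CPT2, ACADM and PLIN2 fell, against 26.8% of all genes higher and 28.5% lower. The same 6 had groups that did not overlap, as had 59.5% of all genes tested. In HepG2, 5 of 8 changed with CD146oe against 19.8% of 15300 genes. ACADVL rose and FABP1, CPT1A, ACADM and HADHA fell, against 9.55% higher and 10.3% lower, and these 5 had groups without overlap, as had 33.5% of all genes. On the FPKM the call remained for FABP1, ACADVL and HADHA, and the share of rises among all calls in HepG2 was 75.5% there and 48.1% with the counts. The median log2 fold change of the tested members was -0.18 with the CD146 shRNA and -0.09 with CD146oe, beside 0.00 for all genes tested in each.

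The responses of the lines were compared in a fit of all 12 libraries by subtracting the effect of higher CD146 in the libraries labelled Hep3B (control minus CD146 shRNA) from that in HepG2 (CD146oe minus pLVX). Line and method of perturbation cannot be told apart in this contrast. It was called for 6 of the 8 genes, 5 lower and 1 higher, beside 36.4% of 18870 genes (17.2% higher, 19.2% lower). CPT2 differed most (-0.95, SE 0.12, edgeR adjusted p = 1.6e-09), since it was higher with more CD146 in the libraries labelled Hep3B and nearly level in HepG2. ACADM (-0.58, SE 0.07, adjusted p = 1e-09), PLIN2 (-0.51, SE 0.08, adjusted p = 9.6e-07) and CPT1A (-0.31, SE 0.06, adjusted p = 6.8e-05) differed in the same direction. PPARA differed the other way (0.64, SE 0.09, adjusted p = 2.5e-08). HADHA was lower with more CD146 in each line, and more so in HepG2 (-0.16, SE 0.05, adjusted p = 0.0155), a call lost without pLVX replicate 1 (0.069) or CD146oe replicate 1 (0.059). ACADVL missed the threshold (0.11, SE 0.05, adjusted p = 0.0992). FABP1 was not called, and with 0 counts in 5 of the 6 libraries labelled Hep3B its contrast has no readable fold.

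Between the control groups, pLVX HepG2 against control shRNA libraries labelled Hep3B, 7 of the 8 genes differed, as did 83.2% of 18870 genes (39.7% higher, 43.4% lower). These libraries also serve as the controls above, and line, medium and construct cannot be told apart. PLIN2 and PPARA were higher in HepG2 by 2.41 and 2.33 on the log2 scale (SE 0.05 and 0.06, edgeR adjusted p = 3.3e-43 and 5.1e-39), and ACADM by 0.76 (SE 0.05, adjusted p = 7.1e-21). CPT1A and ACADVL were lower there (-0.63 and -0.38, SE 0.05 and 0.04, adjusted p = 6.5e-19 and 2.5e-13). HADHA was higher by 0.18 (SE 0.04, adjusted p = 1.9e-05) on the counts but lower on the FPKM (-0.13), a scale on which the median of all genes moved from -0.08 to -0.26. CPT2 missed the threshold on the counts (-0.04, SE 0.08, edgeR adjusted p = 0.683). The 7 include FABP1, which had 0 counts in the control shRNA libraries and passed the filter only through HepG2. Its call was thus set beforehand and adds nothing to the levels given above. From the highest to the lowest of the 4 groups the mean CPM differed 8.05-fold for PLIN2, 5.23-fold for PPARA, 2.26-fold for ACADM, 1.88-fold for CPT2, 1.28-fold for ACADVL and 1.20-fold for HADHA. For PLIN2 and PPARA both HepG2 groups lay above both groups labelled Hep3B and overlapped each other, whereas for CPT2 only the CD146 shRNA group stood apart.

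The rest of the pathway was followed in 9 lists with 117 genes, the 8 included. With the CD146 shRNA, 58 of 90 tested genes (64.4%) changed, 24 higher and 34 lower, with a median of -0.10. Over all genes tested 55.3% changed, 26.8% higher and 28.5% lower, with a median of 0.00, and the counts of single lists are given as a description beside these shares. The mitochondrial beta-oxidation list had 2 rises and 9 falls among 17 tested genes (median -0.12). ETFA, which passes electrons from the acyl-CoA dehydrogenases onward, fell from 297 to 154 CPM (log2 fold change -0.95, edgeR adjusted p = 9.7e-22), close to the fall of CPT2. ECI2, an isomerase for unsaturated chains, fell from 76.5 to 51.2 CPM (-0.58, adjusted p = 4.9e-12), and ECHS1, the short-chain hydratase, from 70.7 to 62.5 CPM (-0.18, adjusted p = 0.00353). In the carnitine list, with 2 rises and 3 falls among 10, SLC25A20, the carrier between CPT1A and CPT2, fell from 18.4 to 15.7 CPM (-0.23, adjusted p = 0.021) although its groups overlapped. SLC22A5, the carnitine transporter of the cell surface, rose from 44.0 to 64.5 CPM (0.55, adjusted p = 1.7e-11).

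Peroxisomal beta-oxidation, which shortens very long chains outside mitochondria, had 6 falls among 11 tested genes with the CD146 shRNA (54.5% called, beside 55.3% of all genes, median -0.20). SCP2, a thiolase and sterol carrier, fell from 60.9 to 39.9 CPM (-0.61, edgeR adjusted p = 2.2e-12), and ABCD3, a peroxisomal transporter, from 165 to 129 CPM (-0.36, adjusted p = 5.3e-09). The count of rises in this list was 0 by edgeR, at an unadjusted p under 0.05 as well, and 0 by DESeq2. Among ketone body genes 1 rose and 2 fell of 4 tested. OXCT1, which uses ketone bodies, fell from 196 to 97.2 CPM (-1.02, adjusted p = 4.3e-22), and was at 3.93 CPM with pLVX.

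Fatty acid uptake genes had 3 rises and 2 falls among 8 tested with the CD146 shRNA (median -0.08), and acyl-CoA synthetases and thioesterases 5 and 4 among 11 (median -0.12). SLC27A2, a very long chain transporter and synthetase, rose from 31.8 to 48.4 CPM (0.60, edgeR adjusted p = 6.1e-11) and SLC27A4 fell from 90.1 to 70.4 CPM (-0.36, adjusted p = 8.9e-07). ACSL3, a long-chain synthetase of lipid droplets, rose from 331 to 500.4 CPM (0.59, adjusted p = 2.5e-15), and ACSL5 fell from 39.5 to 24 CPM (-0.72, adjusted p = 5.7e-12). ACSS2, which activates acetate, rose from 54.6 to 97.5 CPM (0.83, adjusted p = 5.6e-17). The list of lipid droplet genes split evenly, 4 and 4 of 14 (median 0.02), with PLIN2 falling and ABHD5, the activator of triglyceride lipase, rising from 26.0 to 35.4 CPM (0.45, adjusted p = 1.2e-06).

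PPAR receptors and cofactors had 5 rises and 4 falls among 13 with the CD146 shRNA (median 0.02), and PPARA target genes 3 rises and 8 falls among the 13 of 25 that were tested (median -0.18). These counts stand beside 26.8% higher and 28.5% lower over all genes, and the difference was not tested. The rises were led by PDK4, a kinase that restrains pyruvate oxidation, from 399 to 1217 CPM (1.61, edgeR adjusted p = 1.7e-29), and TXNIP from 38.8 to 68.0 CPM (0.80, adjusted p = 1.5e-14). CPT2, CPT1A, ACADM and PLIN2 were among the falls, as was ACSL1, a long-chain synthetase (from 39.9 to 32.1 CPM, -0.32, adjusted p = 5.7e-05). In the other 12 target genes, FABP1 and APOA2 included, levels were too low for a test.

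**Figure D4:**
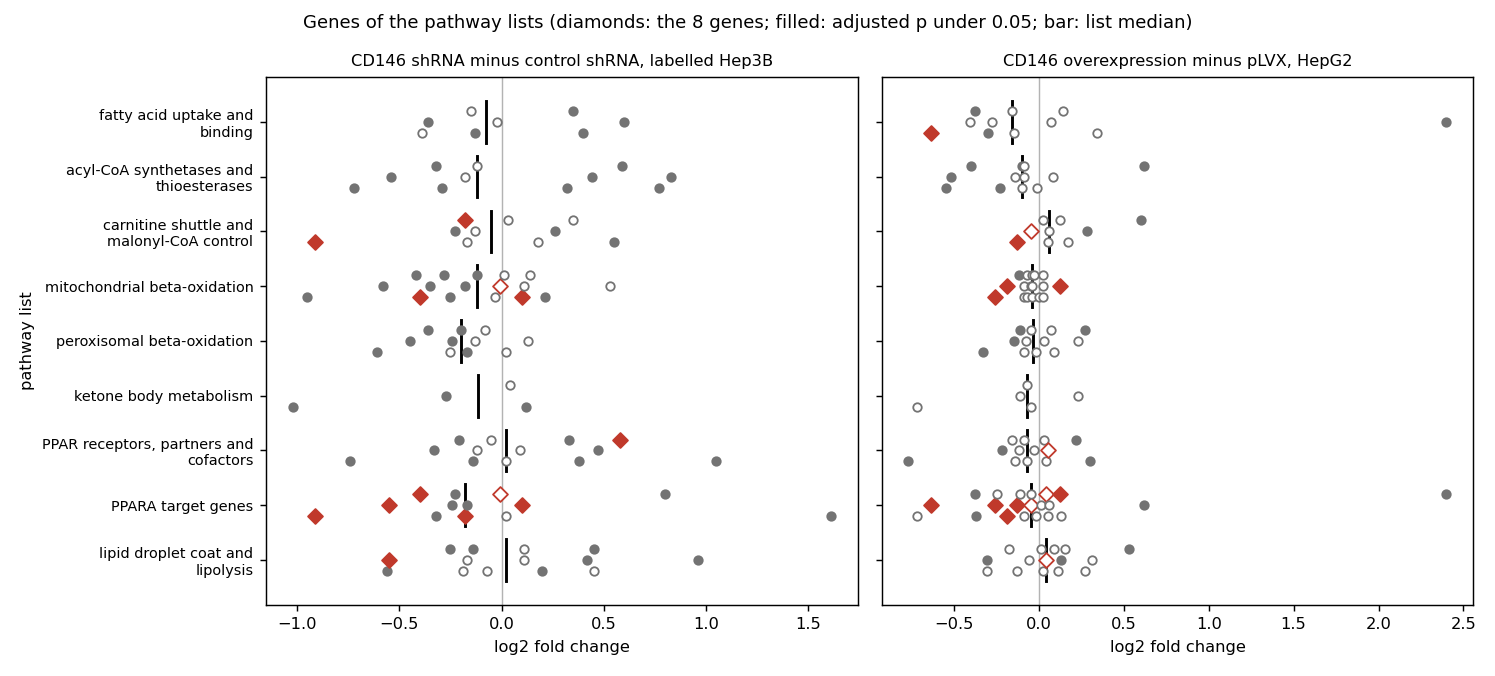
Log2 fold changes of the tested genes of the 9 pathway lists (1 point a gene, filled at an adjusted p under 0.05, diamonds for the 8 genes, bars for list medians, horizontal axis), for the CD146 shRNA in libraries labelled Hep3B and CD146oe in HepG2. Values spread on both sides of 0 in most lists. With the CD146 shRNA, mitochondrial beta-oxidation had 9 falls and 2 rises of 17, where 28.5% of all genes tested fell and 26.8% rose.

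With CD146oe, 30 of 101 tested genes of the lists (29.7%) changed, 10 higher and 20 lower, with a median of -0.05. Over all genes tested 19.8% changed, 9.55% higher and 10.3% lower, with a median of 0.00, and the counts of single lists below rest on few genes and are a description. Mitochondrial beta-oxidation had 1 rise and 3 falls among 17 (median -0.04), all but ECI2 (-0.12, edgeR adjusted p = 0.0312) being the genes ACADVL, ACADM and HADHA. Uptake and binding had 1 rise and 3 falls among 11 (median -0.16). Besides FABP1 these falls held DBI, the acyl-CoA binding protein, from 173 to 141 CPM (-0.30, adjusted p = 2.9e-08), and SLC27A5, a liver transport protein, from 13.3 to 10.1 CPM (-0.38, adjusted p = 0.011). The rise was CD36, a fatty acid receptor of the cell surface, from 0.843 to 4.66 CPM (2.40, adjusted p = 1.3e-10), which was named after its values were seen since it lies under the 5 CPM asked for otherwise. CD36 had 4, 19 and 11 counts with pLVX and passed the filter through the CD146oe libraries. Its call thus adds nothing to these levels. Synthetases had 1 rise and 5 falls among 12 (median -0.10), with ACSL1 rising from 94.4 to 145 CPM (0.62, adjusted p = 1.2e-17) and ACSS2 falling from 136 to 93.7 CPM (-0.52, adjusted p = 4.7e-14). Both thus moved opposite to their change with the CD146 shRNA.

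Peroxisomal genes had 1 rise and 3 falls among 12 with CD146oe, where 19.8% of all genes changed (list median -0.04), with ACOX2, an oxidase of bile acid precursors, falling from 46.9 to 37.0 CPM (-0.33, edgeR adjusted p = 3.2e-05) and SCP2 from 113 to 102 CPM (-0.15, adjusted p = 0.00781). The carnitine list had 2 rises and 1 fall among 9 (median 0.06), with SLC22A5 rising from 19.5 to 23.7 CPM (0.28, adjusted p = 0.00903). CPT1B, the muscle form of CPT1, rose from 2.73 to 4.05 CPM (0.60, adjusted p = 0.0243). Receptors and cofactors had 2 and 2 among 13 (median -0.07), with PPARGC1B, a coactivator, falling from 8.08 to 4.71 CPM (-0.77, adjusted p = 4.3e-05). PPARA targets had 3 rises and 6 falls among 21 (median -0.05), with APOA2, a lipoprotein component, falling from 1945 to 1504 CPM (-0.37, adjusted p = 3.4e-15). Lipid droplet genes had 2 rises and 1 fall among 15 (median 0.04), with HSD17B11 falling from 197 to 158 CPM (-0.31, adjusted p = 2.2e-09). None of 5 ketone body genes passed by edgeR or DESeq2, and 3 of them had an unadjusted edgeR p under 0.05 (1 higher, 2 lower). Of the 57 genes chosen by the naming rule, 27 share exons with another counted gene, so that their counts are less certain.

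Each gene was also set beside its neighbours, the tested genes within 2 Mb with a mean of at least 5 CPM. With the CD146 shRNA, CPT1A lay in a stretch in which 32 of 41 neighbours rose and 2 fell (median 0.36), and 39 of them had a higher log2 fold change than CPT1A. Over all genes tested with the CD146 shRNA, 26.8% rose and 28.5% fell. CPT2 was below all 36 of its neighbours (median -0.09), and PLIN2 below all 9 (median -0.06). PPARA was above 19 of 22 (median -0.09). ACADM differed from these in that the median of its neighbours was similar, at -0.38 against -0.40 for ACADM itself. Of these 9 neighbours 7 fell, and their values ran from -0.66 to 0.34. They include RABGGTB (-0.25), which shares exons with ACADM. HADHA (above 22 of 40, median 0.02) and ACADVL (above 38 of 69, median -0.02) were in the middle of theirs. With CD146oe, FABP1 was below all 11 neighbours (median 0.04) and ACADM below all 10 (median 0.02). HADHA was below 39 of 43 (median -0.06), CPT1A below 31 of 35 (median 0.05), and ACADVL above 53 of 58 (median -0.07).

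**Figure D5:**
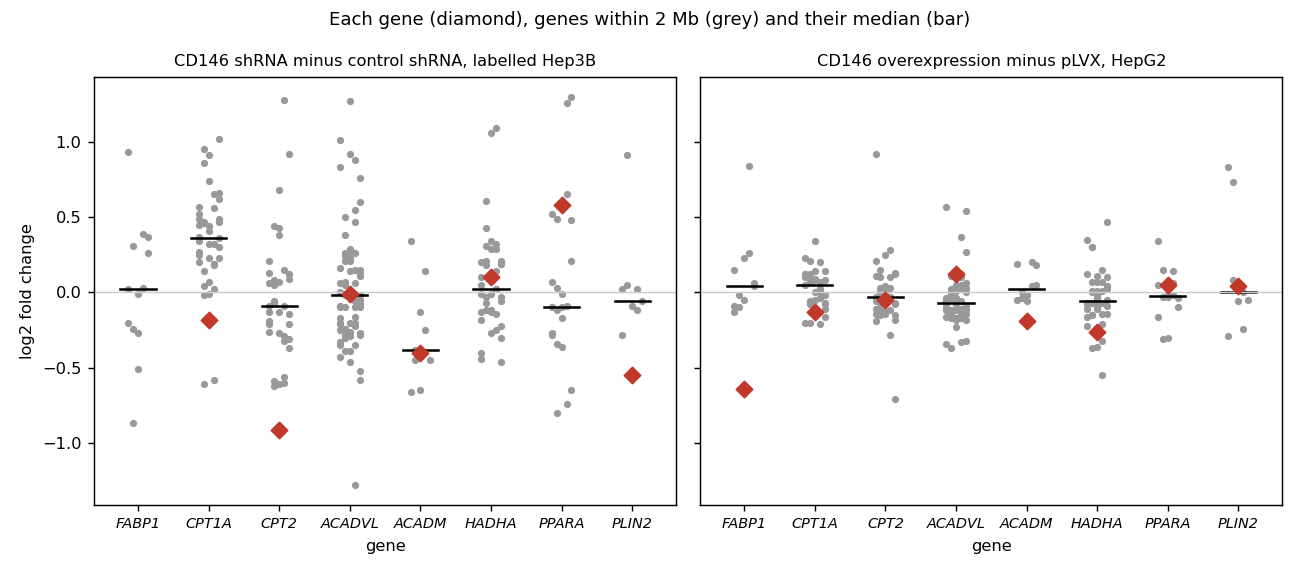
Log2 fold change of each of the 8 genes (diamond), of the tested genes within 2 Mb of it (grey points) and of their median (bar), for both comparisons. CPT2 lies below its 36 neighbours with the CD146 shRNA and FABP1 below its 11 with CD146oe, while ACADM lies among its 9 neighbours with the CD146 shRNA.

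The genes whose pattern was most like that of each member were found by Pearson r of log2 CPM, centred within each line, over 12 libraries and 9403 genes. These r values describe libraries that share their groups, and no p is given. For CPT2 they were GRB2 (0.991) and GNB1 (0.990), for PLIN2 MTHFD1L and ST6GAL1 (both 0.990), and for ACADM WASHC2A (0.982) and UBTF (0.978). HADHA was nearest to GNAS (0.973) and PIH1D1 (0.971), PPARA to SLC43A1 (0.967) and GSDME (0.964), CPT1A to RAB11B (0.962) and ALDH16A1 (0.961), and ACADVL to TAGLN2 (0.951) and NBEAL2 (0.936). For FABP1, over the 6 HepG2 libraries and 10869 genes, FDFT1, an enzyme of sterol synthesis, had an r of 0.999. None of these nearest genes was itself 1 of the 8.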

How the data were processed

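The authors deposited raw counts per gene (Ensembl IDs) for 12 libraries in 4 groups of 3, together with FPKM values that the authors scaled by gene length and library size and rounded to 2 decimals. The submitters' processing notes list HISAT2 2.2.1, HTSeq 0.6.1 and cutadapt 1.9.1. The build, annotation and strand setting used are not given in the sources used here, so reads of overlapping or antisense genes cannot be told apart. Groups were taken from the treatment labels. Symbols were found for 61757 of 61806 IDs, and 22258 IDs were at 0 counts throughout. Totals were 12772991 to 18129816 counts, and 3 counts, the floor of detection, were worth 0.152 to 0.267 CPM, which covers counting error only. Replicates of a group differed beyond sampling noise (chi-square per gene 1.81 to 4.43), so none was counted as a copy.

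Tests were run in R 4.3.3 with the 2-sided quasi-likelihood test of edgeR 4.0.16 (TMM, filterByExpr), each line alone. The difference between the lines and that between the control groups came from a fit of all 12 libraries. P-values were Benjamini-Hochberg adjusted over all genes tested, and a gene is said to rise, fall or change at an adjusted p under 0.05. The SE is the size of the log2 fold change over the root of its F statistic. The fits were tested on simulated data with an assumed spread, which may differ from that of these libraries. Simulated log2 changes of 0.5 were recovered in 81.4% to 83.9% of cases, but in 55.2% for the difference between the lines. False calls made up 3.19% to 7.18% of the calls. Alternatives were DESeq2 1.42.0, RLE scaling, no filter, at least 1 CPM in 3 libraries, a replicate block, limma 3.58.1 on log2(FPKM + 1) or log2(FPKM + 0.1) with a mean FPKM of at least 0.5, 12 libraries in 1 fit, leaving out each library, and an adjusted p under 0.01.

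The 8 genes, the lists and the alternatives were chosen with earlier results of these data known. Beside the 8 genes and 18 fixed context genes, the naming rule took from each list up to 3 genes with the smallest adjusted p in each comparison within a line, at 5 CPM or more in the higher group, and the 2 genes most like each member. Some genes that the rule names are not reported here. Positions are from GENCODE version 29, promoters from RefSeq.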

Additional observations from a re-analysis of the deposited data

Results flagged for a closer look

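The 6 results below are listed because the response to higher CD146 differed between the lines, by the test of the difference itself (log2 difference, HepG2 minus libraries labelled Hep3B). The same test was called for 36.4% of all 18870 genes, so a call alone does not set a gene apart. CPT2 (-0.95), ACADM (-0.58), PLIN2 (-0.51), CPT1A (-0.31) and HADHA (-0.16) differed downward, and PPARA (0.64) upward. In 3 of these genes, CPT2, PPARA and PLIN2, the change passed the test with the CD146 shRNA and not with CD146oe. Over all genes tested, 55.3% changed with the CD146 shRNA and 19.8% with CD146oe. CPT1A and ACADM fell in the treated group of each line, that is, with less CD146 in the libraries labelled Hep3B and with more CD146 in HepG2. In HepG2 both calls were lost on the FPKM, and that of CPT1A also with DESeq2 and with all libraries in 1 fit. HADHA moved against CD146 in each line. Its small rise with the CD146 shRNA was lost without the filter, on the FPKM and in most fits that left out a library. Line, medium and method of perturbation cannot be told apart in these differences. Groups of 3 were not examined for single libraries that lie far from the others.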

How the results depend on the processing

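Of the values of single genes and counts under the alternatives, the signs that turned were those of changes that had not passed the test, and HADHA between the control groups (-0.13 on both FPKM scales). For ACADVL with the CD146 shRNA the log2 fold change became 0.00099 with DESeq2, 0.0011 with RLE scaling, 0.01 with the stricter CPM filter, 0.0014 without control shRNA replicate 1 and 0.01 without CD146 shRNA replicate 1. For CPT2 with CD146oe it became 0.02 on both FPKM scales and without CD146oe replicate 1, for PPARA with CD146oe -0.0008 without pLVX replicate 3, and for CPT2 between the control groups 0.01 without control shRNA replicate 1 and 0.05 without replicate 2. The count of changed members in HepG2 was 3 in place of 5 on both FPKM scales and at an adjusted p under 0.01. The count of all genes changed there was 1839 with DESeq2, 1587 and 1586 on the FPKM scales and 1916 at an adjusted p under 0.01, in place of 3037. Without 1 library at a time these values ran from -0.02 to 0.01 for ACADVL with the CD146 shRNA, from -0.08 to 0.02 for CPT2 and from -0.0008 to 0.1 for PPARA with CD146oe, and from -0.05 to 0.05 for CPT2 between the control groups. Leaving out 1 library gave 5 to 6 changed members with the CD146 shRNA (8645 to 8894 genes), 4 to 5 with CD146oe (2262 to 2675 genes), 5 to 7 for the difference between the lines (6251 to 6631 genes) and 7 between the control groups (15332 to 16063 genes). Rises were 36.2% of the calls between the control groups on the FPKM and 47.8% on the counts. Same-numbered replicates barely deviated together (correlations of 0.033, 0.019 and 0.022 in the libraries labelled Hep3B and 0.008, 0.001 and 0.015 in HepG2). Each library labelled Hep3B still correlated best with its own number, as not all in HepG2 did. Correlations this small cannot settle whether the numbers pair the libraries. With the replicate block 6, 5, 6 and 7 members changed in the 4 comparisons, as without it, and 9543, 2947, 6847 and 15674 genes. Depth limits FABP1 in the libraries labelled Hep3B, where a level under 3 counts was not detectable.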
